A study of Rattus norvegicus with 6 samples.

Results

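The 10 genes described here encode the interleukin-1 ligands Il1a and Il1b, their relative Il18, the antagonist Il1rn, the receptor Il1r1, the cytokines Il6, Il10 and Tnf, and the TNF receptors Tnfrsf1a and Tnfrsf1b. They are 10 of the 17436 genes named on the arrays and were found by gene name, or by the accession printed with each probe, which gave 12 probes. The arrays are 6 Agilent expression arrays of 1 colour, each hybridised with 1 pool of RNA from the hippocampus of male Wistar rats. The pools came from rats at day 21, day 35, day 45, day 55 or day 70 of permanent bilateral common carotid artery occlusion (BCCAo), a model of lasting low blood flow to the brain, and from control rats. The labels give ages of 12 weeks for the control rats and 13, 14, 15, 16 and 17 weeks for the rats of the successive days, steps that are shorter than the days between the pools. The sources used here do not say how many rats went into a pool or whether control rats were sham-operated.

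Each group had 1 array, so no difference below carries a test, a p-value or an error between animals. Arrays of days 21 and 35 shared a slide with the control array, and those of days 45, 55 and 70 shared another slide. The slide therefore cannot be told apart from the occlusion wherever days 45 to 70 are set against the control. The 75th percentile of the signal, by which each array was scaled, ranged over the arrays from 1243 to 1504 units, and 74.5 to 80.2% of spots were well above background, the scanner software's mark for a spot clearly brighter than its surroundings. An array had 12645 to 13706 genes with such spots.

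Interleukin-1 alpha and beta bind the receptor encoded by Il1r1 and, through adaptor proteins and kinases, activate the transcription factor NF-kappaB. The antagonist encoded by Il1rn occupies the same receptor without signalling, and interleukins 1 beta and 18 are made as precursors that caspase-1 cuts inside inflammasomes. TNF acts on a widely expressed receptor, Tnfrsf1a, and on a receptor found more on immune and endothelial cells, Tnfrsf1b; in brain, microglia are a main source of these cytokines.

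Promoters from the RefSeq table (build GRCr8), 250 bases before to 50 after the start of the gene, were found for 9 of the 10 genes. Of these, 4 are printed, for Il18, Il1b and Tnfrsf1b, which were brightest and well above background at day 21, and for Il6, which was not well above background on any array. They lie at chr8:59801822-59802121 on the plus strand (Il18), chr3:137036532-137036831 on the minus strand (Il1b), chr5:162387362-162387661 on the minus strand (Tnfrsf1b) and chr4:5894526-5894825 on the minus strand (Il6). Capitals mark matches, on either strand, to AP-1 (TGANTCA), C/EBP (TTGCNNAA), ETS (GAGGAA) or the NF-kappaB consensus.
Il18: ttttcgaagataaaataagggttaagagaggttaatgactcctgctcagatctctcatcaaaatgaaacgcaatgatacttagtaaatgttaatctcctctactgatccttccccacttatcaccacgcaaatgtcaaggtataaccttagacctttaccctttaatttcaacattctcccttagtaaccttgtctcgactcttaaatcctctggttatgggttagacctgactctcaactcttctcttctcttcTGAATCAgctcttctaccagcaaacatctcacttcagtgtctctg
Il1b: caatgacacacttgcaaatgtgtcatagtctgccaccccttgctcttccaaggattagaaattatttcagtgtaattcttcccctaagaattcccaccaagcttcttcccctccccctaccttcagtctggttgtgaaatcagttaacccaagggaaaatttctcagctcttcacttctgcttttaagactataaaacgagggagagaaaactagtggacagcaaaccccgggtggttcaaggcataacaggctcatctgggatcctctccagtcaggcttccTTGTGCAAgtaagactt
Tnfrsf1b: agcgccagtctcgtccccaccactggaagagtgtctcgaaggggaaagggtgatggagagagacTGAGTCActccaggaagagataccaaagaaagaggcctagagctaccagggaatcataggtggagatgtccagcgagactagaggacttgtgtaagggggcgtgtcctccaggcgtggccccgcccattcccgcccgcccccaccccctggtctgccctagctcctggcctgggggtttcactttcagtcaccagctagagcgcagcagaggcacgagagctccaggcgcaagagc
Il6: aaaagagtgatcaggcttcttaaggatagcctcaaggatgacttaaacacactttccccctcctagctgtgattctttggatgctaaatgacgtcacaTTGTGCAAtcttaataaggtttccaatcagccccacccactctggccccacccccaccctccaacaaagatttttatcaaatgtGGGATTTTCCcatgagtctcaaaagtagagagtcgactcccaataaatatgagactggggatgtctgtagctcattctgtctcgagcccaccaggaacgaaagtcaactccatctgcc

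In these windows, the capitals of Il18 are an AP-1 match at bases 6 to 12 after the start. Those of Il1b are a C/EBP match at 34 to 41, and those of Tnfrsf1b an AP-1 match at -186 to -180. Il6 held a C/EBP match at -152 to -145 and an NF-kappaB match at -68 to -59. Among the promoters not printed, Il1a held an AP-1 match at -12 to -6 and an ETS match at -41 to -36, Tnf an ETS match at -134 to -129 and Il1r1 an NF-kappaB match at -135 to -126. The Il1rn and Tnfrsf1a windows held none of the 4 motifs. An AP-1 match was present in 3 of 9 promoters of these genes against 7.33% of all 33469 promoters, a C/EBP match in 2 against 10.6%, an ETS match in 2 against 27.6% and an NF-kappaB match in 2 against 7.51%. A match is a run of letters and no measured binding, and the AP-1 letters read the same on both strands.

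The probes are 60 bases long, and the array files place them on build rn4. Those of Il1a lie at chr3:116913748-116913807 and chr3:116914826-116914885, that of Il1b at chr3:116964465-116964524 and that of Il1rn at chr3:2613130-2613189. Il1a and Il1b are close neighbours in the current RefSeq gene order, with 1 gene, LOC120101660, between them. The Il18 probe lies at chr8:53943005-53943064, that of Il10 at chr13:43957707-43957766, that of Tnf at chr20:3663558-3663617 and that of Tnfrsf1a at chr4:162185192-162185251. Tnfrsf1b has probes at chr5:163664159-163664218 and chr5:163666541-163666600. The probes of Il6 (chr4:457279-458563, minus strand) and Il1r1 (chr9:39472634-39473165, plus strand) span 1285 and 532 bases of the genome, so each crosses an intron and reads spliced RNA. These 2 are printed because both genes stayed dim on all 6 arrays.
Il6 probe: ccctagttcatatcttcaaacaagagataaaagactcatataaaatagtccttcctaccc
Il1r1 probe: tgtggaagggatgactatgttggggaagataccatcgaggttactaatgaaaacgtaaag

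At day 21 several of these genes were brighter than in the control pool, and by day 35 they were back near it. Il1rn, the receptor antagonist, and Il18 were at least 2-fold higher at day 21, Tnfrsf1a was 1.87-fold higher, and Il1b was well above background on the day 21 array alone. At days 35, 45, 55 and 70, 0 of the genes that could be compared differed from the control by 2-fold. By their brighter or single probe and the processing used here, Tnf and Il1a differed from the control by less than 1.5-fold on every day. Other processing brought Tnf to a log2 difference of up to 0.68 at day 70. Il10 was near the limit of detection, and Il6 and Il1r1 were not well above background on any array. Signals below are the scanner software's background-corrected signals in arbitrary units, and each difference is the scaled log2 signal of a day less that of the control, the 75th percentile of an array being its scale.

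**Figure D1:**
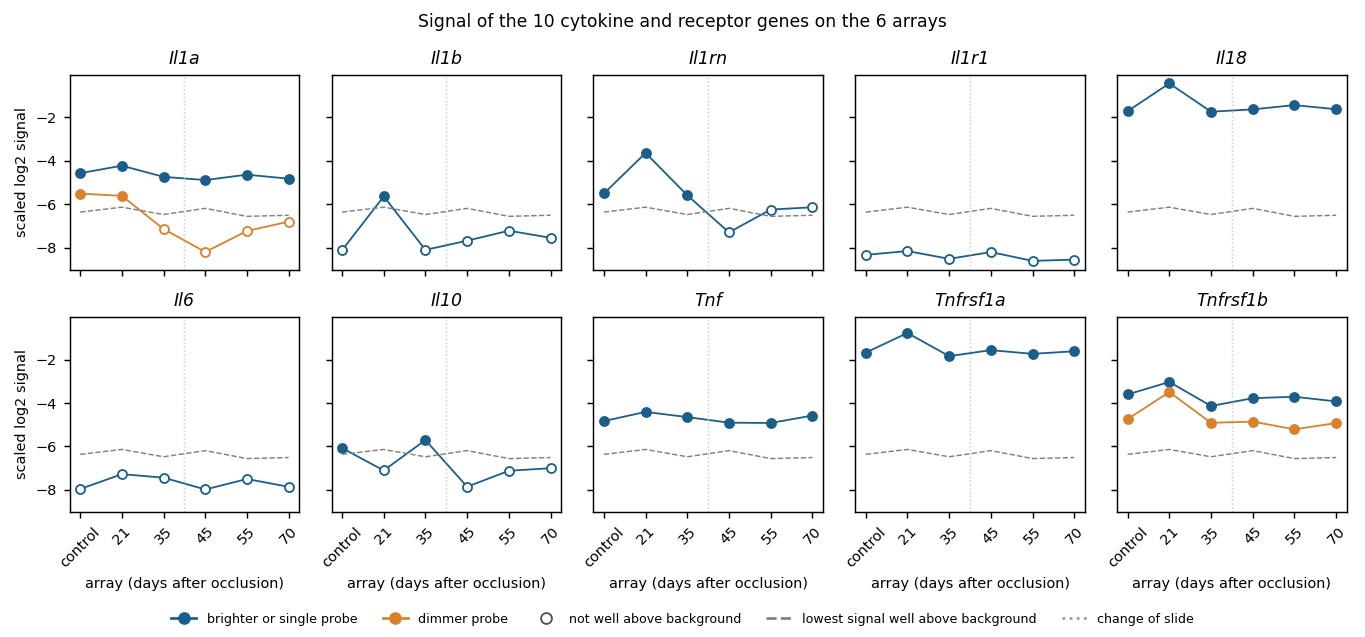
Scaled log2 signal of each probe of the 10 genes (y axis) on the control array and the arrays of days 21 to 70 (x axis), with open points where a probe was not well above background. Il1rn, Il18, Tnfrsf1a, Tnfrsf1b and Il1b peak at day 21. Il6 and Il1r1 lie below the dashed line, the lowest signal well above background, on all 6 arrays.

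Among the ligands of the interleukin-1 family, Il18, whose product drives interferon gamma production, gave signals of 399 in the control pool, 917 at day 21, 449.7 at day 35, 427 at day 45, 474 at day 55 and 449 at day 70. The day 21 array stood alone, and the scaled values of the other 5 arrays spanned 0.30 log2 units, close to the median span of 0.29 over the 12297 genes that passed the detection mark on every array. Il18 was 2.42-fold higher at day 21 than in the control pool, a log2 difference of 1.28 with a spot error of 0.20. Spot error here is the error Feature Extraction, the scanner software, gives for the signal of a spot within an array, and it says nothing of the spread between animals. From highest to lowest, that difference ranked 343 among the 13883 genes compared. At days 35, 45, 55 and 70 the differences of Il18 from the control were -0.02, 0.08, 0.28 and 0.09.

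Il1b, the secreted inflammatory ligand, was printed 10 times on each array. Its mean signal was 4.82 in the control pool, 24.9 at day 21, 5.66 at day 35, 6.81 at day 45, 9.43 at day 55 and 7.98 at day 70. At day 21, 9 of its 10 spots were well above background and lay between 21.9 and 27.1 units, with an SD of 1.73 between spots. In the control pool 0 of 8 usable spots were, and their highest signal was 6.28. Of the later arrays, only that of day 55 had such a spot, 1 of 10, and its spots reached 17.8. All 10 spots of day 21 were thus brighter than every Il1b spot of the other 5 arrays. Because the control probe was not well above background, the difference is a bound: Il1b was at least 1.65-fold higher at day 21, where its mean scaled value was -5.64, against a measured -8.12 in the control pool. That bound depends on the processing, with log2 differences from 0.29 (normexp, another background correction) to 2.48 (a weaker mark of detection) around the reported 0.72. In all, 0.803% of the 17436 genes were well above background at day 21 alone, as Il1b was.

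Il1a, the cell-associated ligand, is read by 2 probes. The brighter, also printed 10 times, gave 55.3 in the control pool, 66.5 at day 21, 56.3 at day 35, 44.9 at day 45, 51.6 at day 55 and 49.1 at day 70. Day 21 was highest and day 45 lowest, with all 6 arrays well above background. The difference from the control was 0.35 at day 21, with an error of 0.08, and -0.17, -0.32, -0.07 and -0.25 at days 35 to 70. Other processing took these later differences as high as 0.03, 0.19, 0.23 and 0.17, so no direction can be given for them. The error of 0.08 is for means of 9 usable spots per array, unlike the errors of probes printed once. It takes these spots as independent, and an error shared by all spots of an array is not reduced by their number. The dimmer probe of Il1a gave 28.8 in the control pool and 25.3 at day 21, its only arrays well above background, and 10.65, 4.52, 8.55 and 12.5 at days 35, 45, 55 and 70. Its difference at day 21 was -0.10 with an error of 0.37, and its later differences are bounds of -0.96, -0.68, -1.05 and -0.997. With that error, the direction of the dimmer probe at day 21 is not determined, and its later bounds are further below the control than the differences of the brighter probe.

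**Figure D2:**
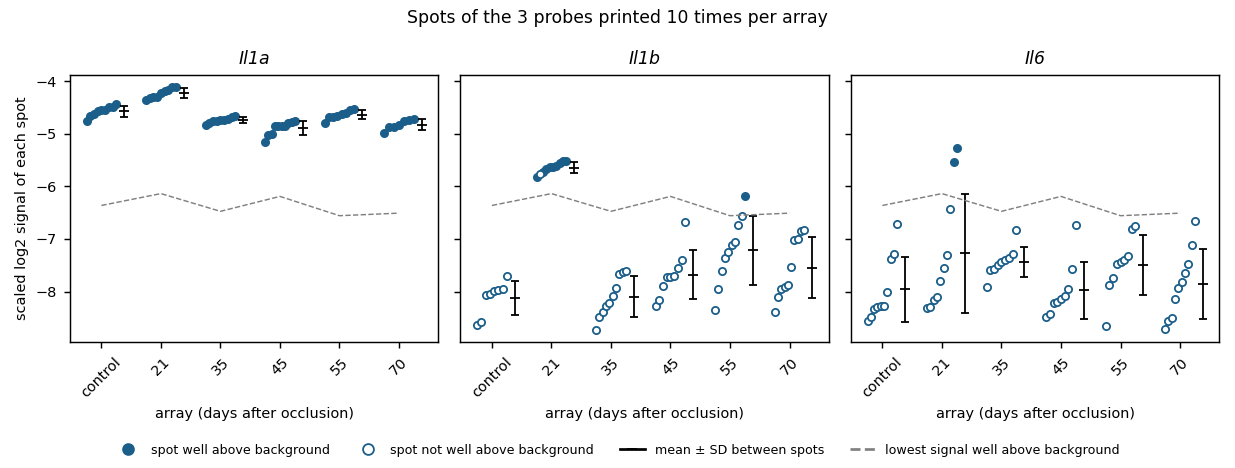
Scaled log2 signal (y axis) of each usable spot of the 3 probes that were printed 10 times, on the control array and the arrays of days 21 to 70 (x axis), with the mean and SD between spots beside them. The day 21 spots of Il1b lie above all its other spots, while only 2 of the 10 Il6 spots at day 21 were well above background.

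Il1rn, the receptor antagonist, had the largest day 21 difference of the genes measured on both arrays. Il1b, with only a lower bound, could not be ranked against it. The signal of Il1rn was 28.9 in the control pool, 99.6 at day 21, 31.2 at day 35, 8.44 at day 45, 16.9 at day 55 and 19.7 at day 70. The first 3 arrays, all of slide 1, were well above background and the 3 of slide 2 were not. At day 21 it was 3.64-fold higher than in the control pool, a log2 difference of 1.87 with a spot error of 0.31, at rank 154 of 13883 genes. With normexp and an offset of 50, which draws low signals together, the difference was 0.79, below 2-fold. At day 35 it was -0.08 with an error of 0.37. At day 45 the bound was -0.68, or at least 1.61-fold lower by this processing. At days 55 and 70 the values were -0.74 and -0.63, or 1.67-fold and 1.55-fold lower. These 2 are the probe's own values from dim spots and set no limit. Other processing brought the values of days 45, 55 and 70 to -0.16, -0.03 and -0.18. In the authors' deposited table Il1rn stood at 37.8 on day 55 and 42.5 on day 70, against 38.5 in the control pool. Whether Il1rn was lower on these days therefore depends on the processing. The antagonist was thus bright at day 21 and not well above background from day 45 on, the later days being those on the other slide.

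Il1r1, the signalling receptor, gave 4.07 in the control pool and 4.36, 4.11, 4.50, 3.30 and 3.70 at days 21 to 70. Its errors were as large as its signals, from 3.29 to 4.48 units, so its level can only be called not well above background. Of all genes, 16.9% were not well above background on any array. Il6, which acts through gp130 on many cell types, averaged 5.79 in the control pool, 11.01 at day 21, 8.86 at day 35, 5.65 at day 45, 7.59 at day 55 and 6.60 at day 70. Its day 21 mean rests on few spots: 2 of 10 were well above background, the highest gave 32.0, and the median was 6.10, against a median of 4.24 in the control pool. Neither gene has a difference, since both arrays of every pair were dim.

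Il10, an anti-inflammatory cytokine, gave 19.5 in the control pool, 9.04 at day 21, 28.8 at day 35, 5.73 at day 45, 9.24 at day 55 and 10.9 at day 70. Only the control and day 35 arrays were well above background, with the higher signal at day 35. Its difference was 0.37 at day 35 with an error of 0.40. At days 21, 45, 55 and 70 the bounds were -0.06, -0.12, -0.48 and -0.44.

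Tnf gave 46.1 in the control pool, 58.5 at day 21, 60.0 at day 35, 44.3 at day 45, 42.5 at day 55 and 58.2 at day 70. All arrays were well above background and none stood apart. After scaling, day 21 was highest, with a difference of 0.42 and an error of 0.28, followed by day 70 at 0.25 and day 35 at 0.18. The differences at days 45 and 55 were -0.07 and -0.09, and for all days but day 21 the spot error exceeded the difference. Over the alternatives the Tnf differences ranged from -0.08 to 0.46 at day 45, -0.12 to 0.35 at day 55 and 0.10 to 0.68 at day 70. In the authors' deposited table Tnf stood at 47.1 in the control pool, 61.9 at day 21 and 73.2 at day 70. Its highest day therefore depends on the processing.

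Both TNF receptors were brightest at day 21. Tnfrsf1a, the receptor with a death domain, gave 409 in the control pool, 725 at day 21, 419 at day 35, 448 at day 45, 386 at day 55 and 453 at day 70. As for Il18, the day 21 array stood alone and the other 5 spanned 0.28 log2 units. Tnfrsf1a was 1.87-fold higher at day 21 than in the control pool, a difference of 0.90 with an error of 0.20, and its differences at days 35 to 70 were -0.16, 0.11, -0.06 and 0.06. Tnfrsf1b, the second TNF receptor, has a brighter probe that gave 108 in the control pool and 152, 85.5, 96.7, 98.1 and 91.3 at days 21, 35, 45, 55 and 70. Its dimmer probe gave 49.0 in the control pool and 110.3, 50.0, 45.8, 34.7 and 45.8 on those days. Day 21 was the highest array by both probes, but the size differed: Tnfrsf1b was 1.49-fold higher by the brighter probe (0.57, error 0.21) and 2.38-fold higher by the dimmer (1.25, error 0.25). At day 35 the brighter probe was lower than in the control pool by more than its error, at -0.53 with an error of 0.22, whereas the dimmer gave -0.17 with an error of 0.27.

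**Figure D3:**
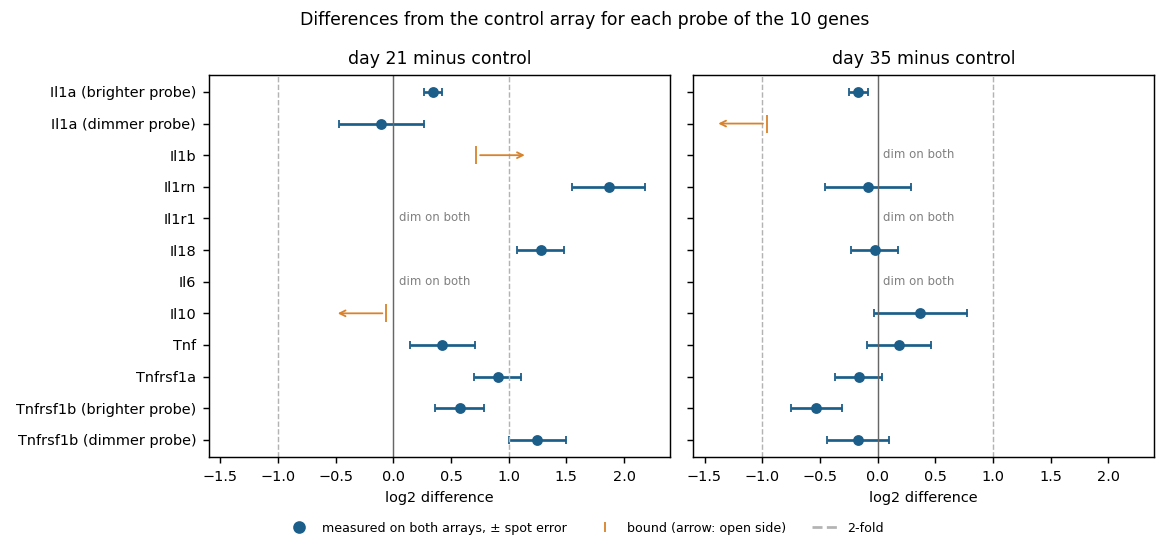
Log2 difference from the control array (x axis) at day 21 (left) and day 35 (right) for each probe (y axis), with bars for the spot error within arrays and arrows for bounds. At day 21 Il1rn, Il18 and the dimmer Tnfrsf1b probe lie past 2-fold, and at day 35 all measured differences lie within it.

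Over the 10 genes, 8 could be compared at day 21. Of these, 2 were at least 2-fold higher, where 3.64% of all genes compared were, and 0 were at least 2-fold lower, where 1.87% of all genes were. In all, 7 of the 8 lay above the control, against 39.5% of all genes compared. The median difference of the 8 was 0.65, against -0.07 over all 13883 genes. Of the 8, 6 were measured on both arrays. Il1b was dim in the control pool and Il10 at day 21, so both entered as bounds whose direction was fixed. At day 35, 7 genes could be compared and 0 differed 2-fold, with 0.439% of all genes higher and 1.13% lower, and the median of the 7 was -0.08. At days 45, 55 and 70, 7 genes could be compared each time and 0 differed 2-fold. Of all genes, 0.59%, 0.668% and 0.657% were 2-fold higher on those days, and 5.75%, 4.95% and 6.67% were 2-fold lower. The medians of the compared genes were -0.12, -0.09 and -0.25. Without scaling, all differences at day 35 shift upward by 0.20, and those of Il1a, Il1rn, Il18 and Tnfrsf1a then change sign, so no direction can be given for them there.

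Of the 5 genes that were well above background on all 6 arrays, Il1a, Il18, Tnf, Tnfrsf1a and Tnfrsf1b, all 5 were highest at day 21, where 23.9% of all 12297 such genes were. For Tnf this depends on the processing: its signal before scaling was higher at day 35 (60.0) than at day 21 (58.5), and the difference of day 35 minus day 21 ranged from -0.26 to 0.12 over the alternatives. Replacing the control by the mean of the control and day 35 arrays, a choice made after the data were seen, left the count of genes at least 2-fold away at day 21 at 2, with differences of 1.91 for Il1rn, 1.29 for Il18 and 0.98 for Tnfrsf1a.

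Arrays of the same slide can be compared without a change of slide. Between day 35 and day 21, on the first slide, 8 genes could be compared and 4 were at least 2-fold lower at day 35, where 4.52% of all genes were, while 0 were 2-fold higher, against 1.04%. Il1rn was 3.86-fold lower at day 35 than at day 21, Il18 2.47-fold, Tnfrsf1b 2.15-fold and Tnfrsf1a 2.09-fold, and Il1b was at least 1.78-fold lower. Il1a and Tnf differed by -0.51 and -0.24, and Il10 by a bound of 0.43. These differences share the day 21 array with those from the control. Of the 4, only Il18 stayed past 2-fold both without scaling (-1.03) and with the normexp correction (-1.16). Without scaling Tnfrsf1a was at -0.79 and Tnfrsf1b at -0.83, and with normexp Il1rn was at -0.91, Tnfrsf1a at -0.96 and Tnfrsf1b at -0.85.

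On the second slide, 5 genes could be compared in each pair of days and 0 differed 2-fold. Of all genes, 0.882% were 2-fold higher and 0.739% lower at day 55 than at day 45. The shares were 0.976% and 0.969% for day 70 against day 45, and 0.877% and 0.958% for day 70 against day 55. By the brighter or single probes, Tnf had the largest of these differences, 0.34 with an error of 0.27 between day 70 and day 55. Il18 differed by at most 0.20 in size and Tnfrsf1a by at most 0.17, both within their spot errors of 0.20.

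Genes whose profiles over the 6 arrays lay close to those of Il18, Tnfrsf1a and Tnfrsf1b were sought among 12292 other genes, after centring each profile. For Il18 they included Nupr1, a stress-response gene, at a root mean square distance of 0.02, and Fxyd5 at 0.06. For Tnfrsf1a they were Lpar6, a lysophosphatidic acid receptor, at 0.04, Dok1, an adaptor of tyrosine kinases, at 0.05, and Tgfbr1, a TGF-beta receptor, at 0.05. For the brighter Tnfrsf1b probe they were Herc6, Best2 and Edem1, at 0.06, 0.08 and 0.08. At day 21 Nupr1 and Fxyd5 were higher than the control by 1.26 and 1.36.

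Other genes of these pathways were counted in 7 lists, 106 of whose 115 genes were on the arrays. The list of processing and release genes, which includes Adam17 and Adam10, had the highest median of the 7 at day 21, 1.02. Of all genes compared, 3.64% were at least 2-fold higher and 1.87% lower. Of the 8 compared in this list, 0 were past 2-fold downward and 4 upward. These were Nlrc4, an inflammasome sensor, at 1.88, Pycard, the inflammasome adaptor, at 1.72, Casp4, an inflammatory caspase, at 1.15, and Casp1, which cuts the precursors of interleukins 1 beta and 18, at 1.05. Under the alternative that lowered each most, Nlrc4 was at 0.72, Casp4 at 0.97 and Casp1 at 0.78, below 2-fold, and Pycard at 1.40. At day 35 they gave 0.12, -0.30, -0.47 and -0.31.

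Known induced targets of IL-1 or TNF had a median of 0.80 at day 21, with 6 of 17 compared genes at least 2-fold higher and 0 lower. Over all genes compared, the shares were 3.64% higher and 1.87% lower. The chemokine Ccl2 was higher by at least 3.90 log2 units, the chemokine Cxcl10 by 3.24, complement C3 by 2.89 and the iron-binding Lcn2 by 2.50. At day 35 the differences of Cxcl10, C3 and Lcn2 were -0.49, -0.55 and -0.19, and Ccl2 was dim on both arrays. In the adaptor and kinase list 2 of 17 genes passed 2-fold upward and 0 downward, Ripk3, the kinase of necroptosis, at 2.14 and Map3k8 at 1.05, with a list median of 0.10. The call of Map3k8 was lost under an alternative, at 0.59. Myd88, the adaptor of the interleukin-1 receptors, was at 0.80 and Tradd, the adaptor of Tnfrsf1a, at 0.65. Of the NF-kappaB list, 1 of 12 genes was at least 2-fold higher and 0 lower, namely Bcl3, a nuclear partner of NF-kappaB, at 2.81, and the list median was 0.15. Nfkbia, the inhibitor of NF-kappaB that NF-kappaB itself induces, was at 0.50, Tnip2 at 0.29 and Nfkb1 at 0.27.

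Among TNF superfamily ligands and receptors 2 of 12 were at least 2-fold higher and 0 lower, and the median was 0.33. Over all genes compared at day 21, the shares were 3.64% higher and 1.87% lower. Tnfsf4 (OX40 ligand) was higher by at least 1.85 and the costimulatory receptor Cd40 by 1.17, while Tnfrsf12a and Ltbr were at 0.90 and 0.63. Both calls were lost under an alternative, with Tnfsf4 at 0.75 and Cd40 at 0.78. Of the IL-6 and IL-10 receptor chains and related ligands, 1 of 8 was at least 2-fold higher and 0 lower, the shared chain Il10rb at 1.01, which an alternative brought to 0.84, and the list median was 0.01. Cntf was at 0.58 and Lif at -0.89, and Osmr at a bound of -0.71. Of the rest of the IL-1 family, 3 of 10 compared genes lay past 2-fold downward at day 21 and 0 upward. The median was -0.31 and 3 of 10 lay above the control, where 39.5% of all genes did. The epidermal-type ligands Il36g and Il36a had bounds of -3.02 and -1.37 and their antagonist Il36rn was at -1.27, while Il18r1, the receptor of interleukin 18, was at -0.74. Il36g and Il36a were dim on all arrays but the control, so their difference rests on that 1 array. Alternatives brought Il36a to -0.47 and Il36rn to -0.52, below 2-fold. At day 35 Il36g and Il36a were the only genes of the 7 lists past 2-fold, at bounds of -3.36 and -1.71.

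**Figure D4:**
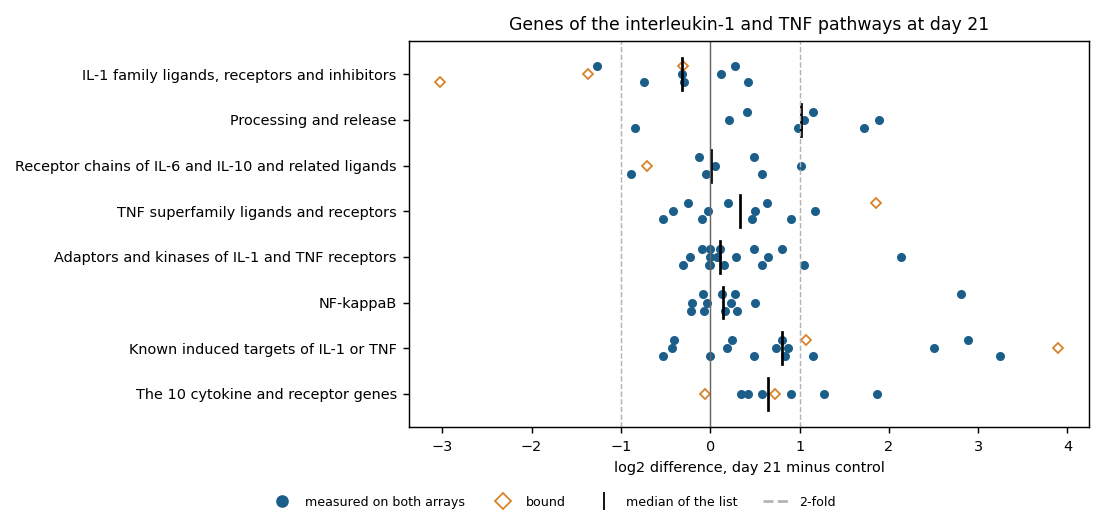
Log2 difference of day 21 minus control (x axis) for each gene compared in the 7 pathway lists and for the 10 cytokine and receptor genes (y axis), with diamonds for bounds and bars for list medians. The processing list and the induced targets have medians of 1.02 and 0.80, and the other IL-1 family genes one of -0.31.

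Markers of several cell types differed at day 21 as well, and in pooled tissue more cells of a type and more RNA per cell cannot be told apart. Of 10 microglial markers, 6 were at least 2-fold higher, where 3.64% of all genes compared were. Their median was 1.24, and their summed scaled level was 40.5 at day 21, against 18.3 in the control pool and 16.5 to 19.1 on the other arrays. Aif1 was higher by 1.67, Trem2 by 2.52 and Cd68 by 3.93, whereas Cx3cr1 differed by 0.07 and Tmem119 by 0.24. Of 6 meningeal and fibroblast markers, 3 were at least 2-fold higher at day 21, with a summed level of 8.18, against 2.81 in the control pool and 2.43 to 2.74 on the other arrays. The part of these markers in the day 21 values of Il1rn, Il18, Tnfrsf1a and Tnfrsf1b was not tested.

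Choroid plexus markers followed another course, with summed levels of 3.1 in the control pool, 51.6 at day 21, 26.4 at day 35, 2.98 at day 45, 3.05 at day 55 and 44.0 at day 70. At days 35 and 70 Il18 lay at -0.02 and 0.09 from the control and Tnfrsf1a at -0.16 and 0.06. Tnfrsf1b, by its brighter probe, lay at -0.53 and -0.32, and Il1rn at -0.08 and, from a dim spot, -0.63. The part of choroid plexus tissue in the day 21 values of these genes was not tested. Of 5 neutrophil markers, Elane and Ngp were dim on all arrays. At day 21, 2 of the 3 compared were at least 2-fold higher, where 3.64% of all genes compared were. Of 4 T and B cell markers compared at day 21, 2 lay above the control and 0 were at least 2-fold higher. Cd3g, Cd8a and Ms4a1 were dim on all arrays. Of 6 markers of border macrophages and monocytes, 3 could be compared at day 21, where all 3 lay above the control and 1 was at least 2-fold higher, with a median of 0.93; the summed level of the list was 0.242 at day 21, against 0.113 in the control pool. Mrc1 and Ccr2 of that list were dim on all arrays. The markers of hippocampal neurons were well above background on all arrays and summed to 16.0 at day 21, against 20.1 in the control pool.

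**Figure D5:**
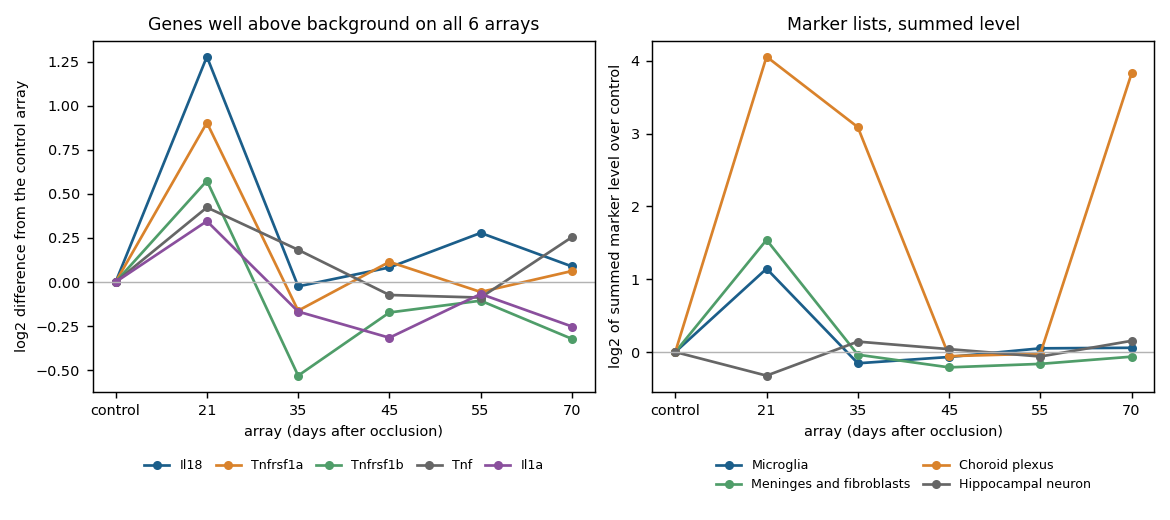
Left, log2 difference from the control array (y axis) of Il18, Tnfrsf1a, Tnfrsf1b, Tnf and Il1a, by array (x axis). Right, log2 of the summed level of 4 marker lists over that of the control; microglial and meningeal markers peak at day 21 as Il18 does, and choroid plexus markers are high at days 21, 35 and 70.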

How the data were processed

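The authors deposited 1 scanner file per array, read with Feature Extraction 10.7.3.1 on array design 028282, per the file headers. The labels name Cy5 as the dye, but the files hold 1 channel, the green, which was used. The deposited intensity per spot is a background-corrected processed signal, not scaled between arrays, per the file headers. The authors also deposited an intensity table, and the sources used here do not say how it was made; it ranked the spots as the median signal minus background did, with a rank correlation of 1.00, and served as an alternative.

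Outlier spots (346 to 470 per array) were left out, log2 signals were scaled by each array's 75th percentile, and spots of a probe were averaged. Probes were named through current RefSeq genes, and the brightest probe stood for a gene. A probe counted as well above background where over 50% of its usable spots were. Where 1 array of a pair was dim, the higher of its lowest signal well above background and the probe's own value gave a bound. Genes were called at 2-fold, and precision is limited by the number of arrays. From probes printed 10 times, the technical SD of a difference was 0.08. The named genes are the 10 described, the 4 furthest from the control at day 21 in each pathway list, those past 2-fold at day 35, and the 3 closest profiles, of which 1 is not reported here. Genes and lists were chosen with earlier results of these data known. Values were computed with Python 3.11.15 and, for normexp, limma 3.58.1, and the code that computes differences was run on simulated data with known changes. Background correction, scaling, probe choice, detection, outliers and threshold were varied.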

Additional observations from a re-analysis of the deposited data

How the results depend on the processing

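Over 96 recomputed counts of the 10 genes past 2-fold, 82 stayed within 1.5 times the reported count and 14 did not; no value past 2-fold changed sign. At day 21 the count of 2 became 1 with normexp, 4 with a weaker mark of detection (signal positive and significant), which adds Il1b at 2.48 and Il10 at -1.03, and 4 at 1.5-fold. The count at day 45 was 0 and became 1 with the mean of all probes (Il1a, whose dimmer probe was dim), 2 with the weaker mark and 1 at 1.5-fold. At day 55 it was 0 and became 1 with the weaker mark, at 1.5-fold, and with the dimmer probes of Il1a and Tnfrsf1b, an alternative chosen after the data were seen. At day 70 it was 0 and became 1 at 1.5-fold. Between day 35 and day 21 the 4 became 1 with normexp and 2 without scaling. With the weaker mark 1 gene passed, in place of 0, for day 55 against day 45 and day 70 against day 45. The day 21 differences ranged over the alternatives from 1.11 to 1.31 for Il18, 0.79 to 2.05 for Il1rn, 0.29 to 2.48 for Il1b, 0.82 to 0.98 for Tnfrsf1a, 0.38 to 1.25 for Tnfrsf1b, and -0.10 to 0.43 for Il1a.

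Over all genes, 505 were higher and 259 lower at day 21, with ranges of 241 to 1079 and 28 to 750 over the alternatives. The split of calls moved with quantile normalization, to 113 higher and 133 lower at day 35 in place of 61 and 157, to 201 higher and 302 lower at day 45 in place of 81 and 789, to 190 higher and 419 lower at day 55 in place of 93 and 689, and to 227 higher and 407 lower at day 70 in place of 91 and 924. Without scaling it was 107 higher and 111 lower at day 35. The authors' deposited values gave 371 higher and 113 lower at day 21, 37 higher and 67 lower at day 35, 67 higher and 143 lower at day 45, 75 higher and 170 lower at day 55, and 73 higher and 188 lower at day 70. The cause was not tested. No paired analysis was possible because each group had 1 array. Signals of Il1b, Il1r1, Il6 and Il10 lay near background, which limits them to bounds or to no difference, except for Il10 between day 35 and the control.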
